A study of Zea mays with 12 samples.

Results

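Lipoxygenase and jasmonate synthesis genes, 5 in all of the 1108 that the annotation names, were followed in laser-captured cells of maize roots that carried the root-knot nematode Meloidogyne incognita: the lipoxygenase genes lox1 and lox3, the allene oxide cyclase gene aoc1, and opr5 and opr8, which encode reductases of the OPDA reductase family. They were found by matching these 5 names to the gene symbol of the array's annotation and to the RefSeq symbol and synonyms. The match gave 8 probe sets of the 17621 on the array besides the manufacturer's controls, with 2 each for lox1, aoc1 and opr8 and 1 each for lox3 and opr5. Where a gene has 2, they are told apart below by the end of their identifier (A1_at, A1_x_at or S1_at). The genes had been chosen for their difference between giant and control cells in these same arrays, so that difference is described here without a test, and only the comparisons between days are tested for them.

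The study compared giant cells, the enlarged feeding cells that the nematode induces, with control cells from parts of the same infested root systems that held no nematodes. Both cell types were captured at 14 and at 21 days after inoculation, which gave 4 groups of 3 arrays described as biological replicates. All 12 samples shared the genotype (labelled IS A A188 C B73 Cross), the greenhouse growth in sand and turface, and the inoculation of seedlings aged 2 weeks with 1000 stage 2 juveniles, so no group came from an uninfested plant. A giant-cell sample was about 40 to 60 cells from some 5000000 square micrometres, and a control sample about 75 to 150 cells from some 13000000. The labels do not say which plants gave which sample, or whether plants were pooled.

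Oxylipins are made from fatty acids that membranes release. Lipoxygenases add oxygen to linoleic or linolenic acid. In one branch allene oxide synthase and allene oxide cyclase turn the product into oxo-phytodienoic acid (OPDA), which an OPDA reductase and rounds of beta-oxidation convert to jasmonic acid, a hormone of wounding and defence. Other lipoxygenases feed a separate branch of oxylipins that does not lead to jasmonic acid. In maize lox3 belongs to that other branch, and maize plants that lack it are known to be more susceptible to root-knot nematodes. The genes opr7 and opr8 are the pair known to be needed for jasmonic acid in maize, whereas opr5 encodes a related reductase outside that pair.

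Values are MAS5 signals, the linear brightness of a probe set, and the trimmed mean was the same on all arrays to within 0.1. Median signals over all probe sets ran from 200 to 230 on giant-cell arrays and from 182 to 216 on control arrays, and 3 arrays per group set the precision. Signals of different probe sets cannot be compared with each other. A signal in captured tissue is a share of the RNA in a mixture, so fewer cells of a type and less RNA per cell cannot be told apart. Of the 17621 probe sets, 12080 were bright enough to be tested, and these included all 8 probe sets of the 5 genes.

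Both lipoxygenase genes and opr5 were lower in giant cells, opr8 was higher, and the 2 probe sets of aoc1 pointed in opposite directions, as the arrays were deposited. With the arrays scaled to added control transcripts, described further on, opr8 A1_at stood at -0.12 at 14 days and aoc1 S1_at was lower on both days. The plot of signals shows every array.

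**Figure D1:**
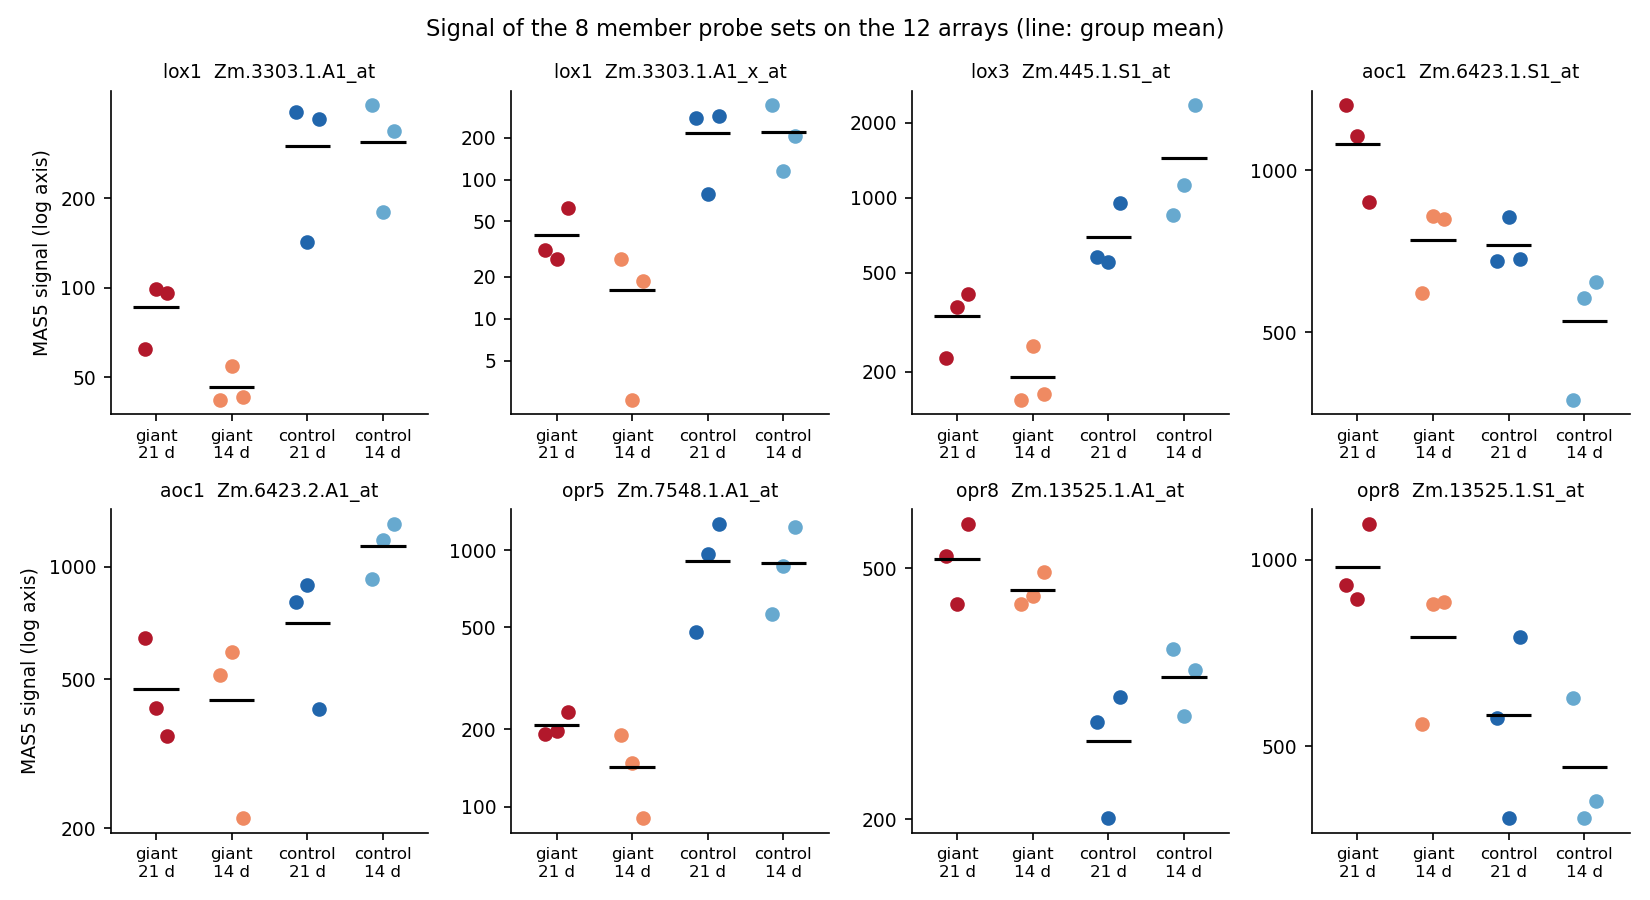
MAS5 signal (log axis, a separate range for each panel) of the 8 probe sets of lox1, lox3, aoc1, opr5 and opr8 on the 12 arrays, 3 per group, with a line at each group mean. The giant-cell arrays lie below all control arrays for lox1, lox3 and opr5 and above them for opr8 A1_at, as deposited, and the 2 aoc1 panels run in opposite directions.

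The lipoxygenase gene lox1 (Gene ID 541856) was read by 2 probe sets. On A1_at its signals at 14 days were 42.1, 54.6 and 42.8 in giant cells, against 410, 179 and 336 in control cells. At 21 days they were 62.3, 99.1 and 96 in giant cells, against 388, 142 and 369 in control cells. All 6 giant-cell arrays lay below all 6 control arrays. The log2 difference, giant minus control, was -2.43 ± 0.42 at 14 days and -1.60 ± 0.42 at 21 days (SE from the limma fit to log2 of signal plus 9.5, n = 3 per group), which is 5.41-fold and 3.03-fold lower on that scale.

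The second lox1 probe set, A1_x_at, carries the suffix that the array's maker gives to probe sets with probes shared by other sequences. It read 26.8, 2.62 and 18.7 in giant cells at 14 days, against 343, 115 and 205 in control cells. At 21 days it read 31.2, 26.9 and 62.6 in giant cells, against 279, 78.8 and 287 in control cells. The groups again did not overlap on either day. The array at 2.62 lay below the 9.5 that was added to every signal, so the differences of -3.19 ± 0.61 at 14 days and -2.05 ± 0.61 at 21 days depend on that value. At 14 days the difference was -4.01 when 1 was added and -2.19 when 38 was added.

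The gene lox3 (Gene ID 542495), the lipoxygenase with the known link to root-knot nematodes, had signals of 155, 255 and 163 in giant cells at 14 days, against 853, 1126 and 2346 in control cells. At 21 days the signals were 227, 365 and 412 in giant cells, against 576, 553 and 954 in control cells. The cell types did not overlap on either day, or over both days together. The log2 difference was -2.76 ± 0.38 at 14 days (6.76-fold lower) and -1.03 ± 0.38 at 21 days (2.04-fold lower). Array 3 of control cells at 14 days held the highest lox3 signal, and without it the 14-day difference was -2.34. Maize has lipoxygenase genes close in sequence to lox1 and lox3, and whether their RNA adds to these signals was not tested.

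The gene aoc1 (Gene ID 542151) encodes the cyclase that makes OPDA. Its probe set S1_at read 591, 823 and 812 in giant cells at 14 days, against 375, 578 and 620 in control cells. On day 21 the signals were 1321, 1158 and 874 in giant cells, against 678, 820 and 684 in control cells. The groups overlapped at 14 days and not at 21 days. The log2 differences were 0.51 ± 0.25 and 0.60 ± 0.25, so this probe set was higher in giant cells by a similar amount on both days.

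The other aoc1 probe set, A1_at, read 514, 591 and 213 in giant cells at 14 days, against 926, 1181 and 1305 in control cells. At 21 days it read 646, 419 and 354 in giant cells, against 808, 893 and 418 in control cells. Here giant cells were lower, with no overlap at 14 days and overlap at 21 days, and the differences were -1.46 ± 0.39 and -0.54 ± 0.39. Without the arrays 3 of both cell types at 14 days, the 14-day difference of this probe set was -0.91.

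**Figure D2:**
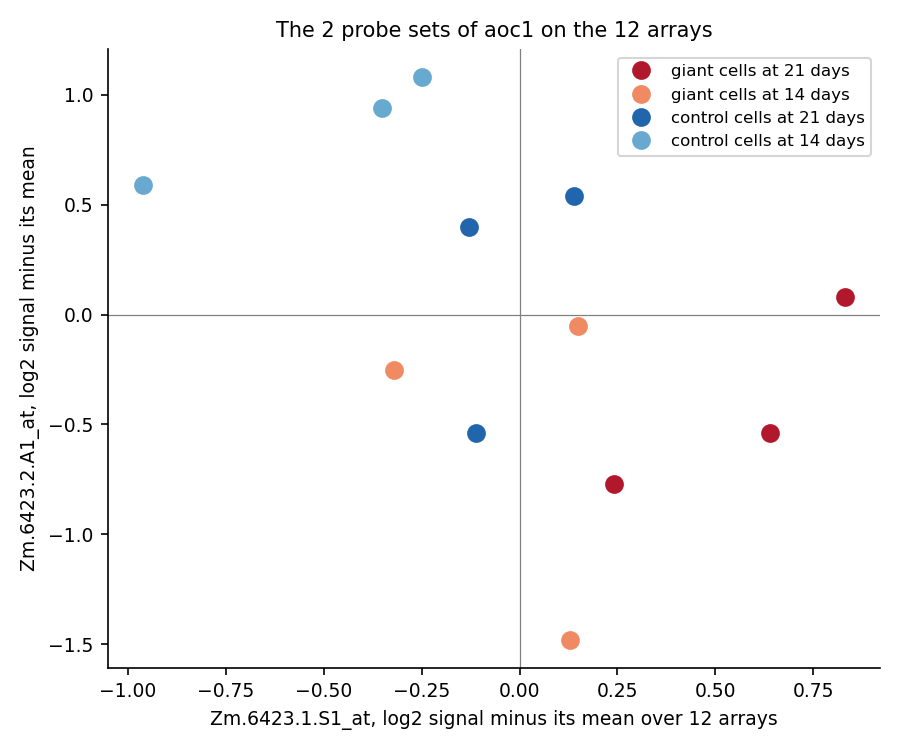
Each point is 1 of the 12 arrays, placed by the log2 signal of the 2 aoc1 probe sets after the mean of each probe set over the arrays was taken off (axes in log2 units). The arrays of control cells at 14 days sit at the upper left, between 0.59 and 1.08 for A1_at, and those of giant cells at 21 days at the right, between 0.24 and 0.83 for S1_at.

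The plot of the aoc1 pair shows that the disagreement is one between groups and not the same on every array. Within an array, the log2 signal of S1_at minus that of A1_at lay between 0.20 and 1.88 in giant cells at 14 days, against -1.28 to -1.02 in control cells at 14 days. At 21 days it lay between 1.02 and 1.45 in giant cells, against -0.25 to 0.70 in control cells. After group means were taken off, the deviations of the 12 arrays correlated with a Pearson r of 0.31 and a Spearman rho of 0.45. The same measure was 0.83 and 0.90 for the 2 opr8 probe sets and 0.67 and 0.46 for the 2 lox1 probe sets. These are descriptions, in which the probe sets share their arrays and hence their depth and RNA. Which stretch of the aoc1 transcript each aoc1 probe set reads is not given in the sources used here.

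Among the reductases, opr5 (Gene ID 732829) read 191, 148 and 90.3 in giant cells at 14 days, against 566, 870 and 1234 in control cells. At 21 days it read 192, 198 and 234 in giant cells, against 478, 968 and 1268 in control cells. All giant-cell arrays lay below all control arrays, and the differences of -2.55 ± 0.39 and -1.97 ± 0.39 are 5.85-fold and 3.91-fold on the fitted scale. The giant-cell means were 143 ± 50.6 at 14 days and 208 ± 22.8 at 21 days (SD, n = 3 each), against control means of 890 ± 334 and 905 ± 399. Relative to the mean, the SD was similar in both cell types at 14 days and larger in control cells at 21 days.

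The jasmonate reductase gene opr8 (Gene ID 732734) went the other way. On its A1_at probe set it read 439, 451 and 493 in giant cells at 14 days, against 373, 292 and 345 in control cells. On day 21 the signals were 523, 439 and 588 in giant cells, against 285, 201 and 313 in control cells. All 6 giant-cell arrays lay above all 6 control arrays. The log2 differences were 0.45 ± 0.23 at 14 days and 0.94 ± 0.23 at 21 days.

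The second opr8 probe set, S1_at, read 543, 849 and 856 in giant cells at 14 days, against 598, 383 and 408 in control cells. At 21 days it read 909, 865 and 1143 in giant cells, against 555, 383 and 749 in control cells. Giant cells overlapped control cells at 14 days, through 1 array of each, and lay above them at 21 days. The differences were 0.68 ± 0.29 and 0.82 ± 0.29, close to those of the first opr8 probe set. The genes opr7 and opr8 are close relatives in maize, and whether opr7 RNA adds to these signals was not tested.

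Over both days together, all 6 giant-cell arrays lay below all 6 control arrays for 4 of the 8 probe sets and above them for 1. Among all 12080 probe sets tested, 7.41% lay wholly below and 9.31% wholly above. By the limma fit 42.2% of them were called over both days together, 27.5% on day 14 and 18.4% on day 21. Since the genes were chosen on this difference, nothing is read from those counts.

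The order of the 4 groups was the same for lox1 on both probe sets and for lox3: control cells at 14 days stood highest, then control cells at 21 days, then giant cells at 21 days, with giant cells at 14 days lowest. In that order the control groups overlapped each other, and control cells at 21 days lay wholly above giant cells at 21 days for all 3 probe sets. Giant cells at 21 days lay wholly above giant cells at 14 days for both lox1 probe sets and overlapped them for lox3. On lox1 A1_x_at that gap was only between 26.8 and 26.9. For opr5 the 2 control groups changed places and overlapped, and the 2 giant-cell groups were apart by a small gap between 191 and 192. For aoc1 S1_at and opr8 S1_at the order ran from giant cells at 21 days through giant cells at 14 days and control cells at 21 days to control cells at 14 days. On opr8 A1_at the only gap between neighbours was that between giant cells at 14 days and control cells at 14 days.

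The scale of the arrays bears on the genes that were higher. Bacterial and phage transcripts that are added at hybridization were brighter on giant-cell arrays, at a mean of 13.74 (range 13.46 to 14.19) against 13.05 (12.79 to 13.29) on control arrays in log2 units. Scaling the arrays to these transcripts moved the median difference of all tested probe sets to -0.52, against 0.15 as deposited. The split of calls over all probe sets in the mean of both days was then 468 higher and 4954 lower, against 3038 higher and 2055 lower as deposited.

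With that scaling lox1 A1_at stood at -2.64, lox3 at -2.57 and opr5 at -2.92 in the mean of both days, against -2.02, -1.89 and -2.26 as deposited. The higher signals of opr8 shrank to 0.02 and 0.07, against 0.70 and 0.75 as deposited, and aoc1 S1_at turned to -0.13, against 0.55. The added transcripts were brighter on giant-cell arrays by 0.69 log2 units, so this scaling lowers the differences between giant and control cells. Probe sets already lower in giant cells, those of lox1, lox3 and opr5 and aoc1 A1_at, could only become lower. Nothing is read from their unchanged direction. Higher aoc1 S1_at and opr8 signals in giant cells were near 0 or turned with the added transcripts.

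**Figure D3:**
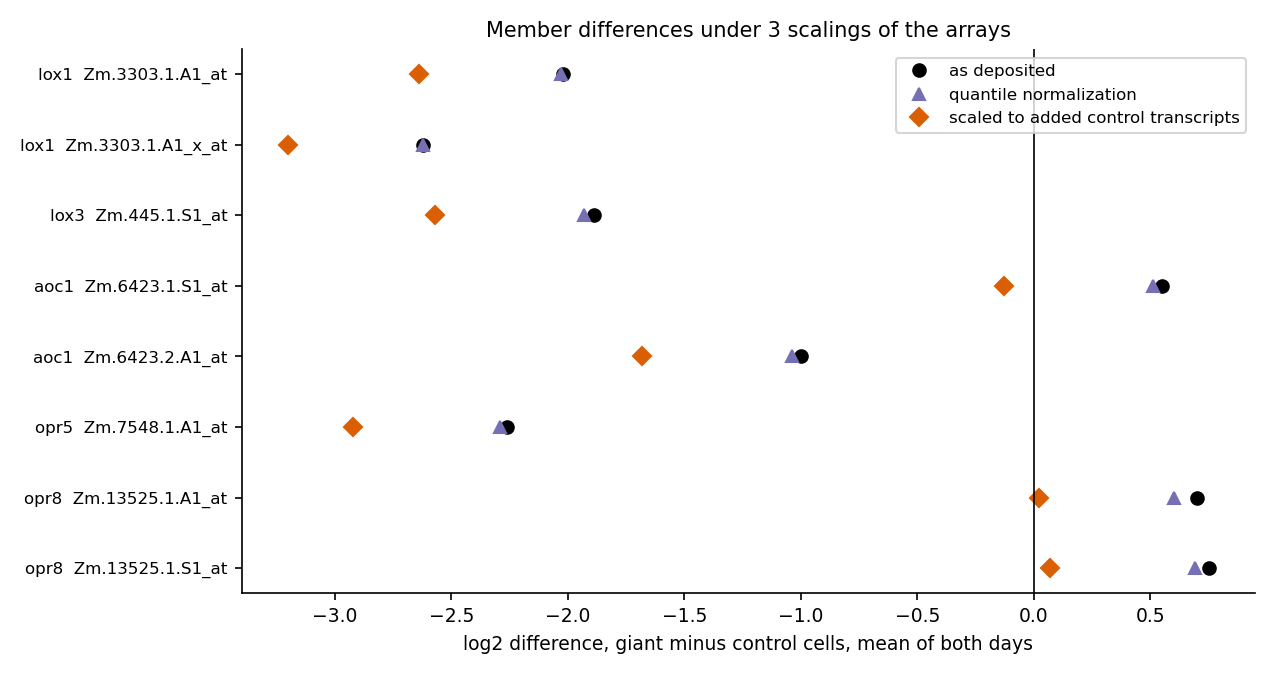
Log2 difference, giant minus control cells, mean of both days, for the 8 probe sets under 3 scalings of the arrays. Circles are values as deposited, triangles quantile normalization and diamonds scaling to the added control transcripts, which moves opr8 to 0.02 and 0.07 and aoc1 S1_at to -0.13.

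Whether expression of the 5 genes differed between 21 and 14 days was tested, since the genes were not chosen on that difference. They were chosen in the same arrays, on the difference between cell types, that on each day included. The comparisons between days share those group means, so they are not free of that choice. In giant cells, 0 of the 8 probe sets passed an adjusted p of 0.05 (limma, Benjamini-Hochberg over 12080 probe sets), and 0.637% of all tested probe sets did. At an unadjusted p under 0.05 it was 1 of 8, against 17.7% of all. The adjusted p-values of the 8 probe sets ran from 0.26 to 0.85 in that limma fit.

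All 8 probe sets nonetheless had a positive log2 difference in giant cells, 21 minus 14 days, with a median of 0.57 (7 of 8 were positive without array 3 of giant cells at 14 days, or without array 1 of giant cells at 21 days), where 46.9% of all probe sets tested were positive and their median was -0.04. On 5 of the 8, every array at 21 days lay above every array at 14 days, which held for 11.1% of all tested. These 5 were both lox1 probe sets, aoc1 S1_at, opr5 and opr8 S1_at. The gap between the nearest arrays was small for lox1 A1_x_at (26.9 against 26.8), opr5 (192 against 191) and opr8 S1_at (865 against 856). The 8 probe sets share the same 6 arrays, and 3 pairs of them share a gene, so they are not independent of each other.

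The lox1 signals of 62.3, 99.1 and 96 at 21 days stood against 42.1, 54.6 and 42.8 at 14 days in giant cells, a log2 difference of 0.75 (95% confidence interval -0.16 to 1.66, limma adjusted p = 0.38). For lox3 the difference was 0.77 (-0.05 to 1.59, limma adjusted p = 0.31), and its arrays overlapped between days. The smallest adjusted p was that of aoc1 S1_at, at 0.58 (0.03 to 1.12, limma adjusted p = 0.26, unadjusted p = 0.039). The opr5 difference was 0.57 (-0.27 to 1.40), and those of opr8 were 0.15 (-0.35 to 0.65) and 0.39 (-0.24 to 1.02). These intervals still hold changes of more than 0.6 log2 units for every one of the 8 probe sets, so the misses do not show that levels were equal on both days.

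**Figure D4:**
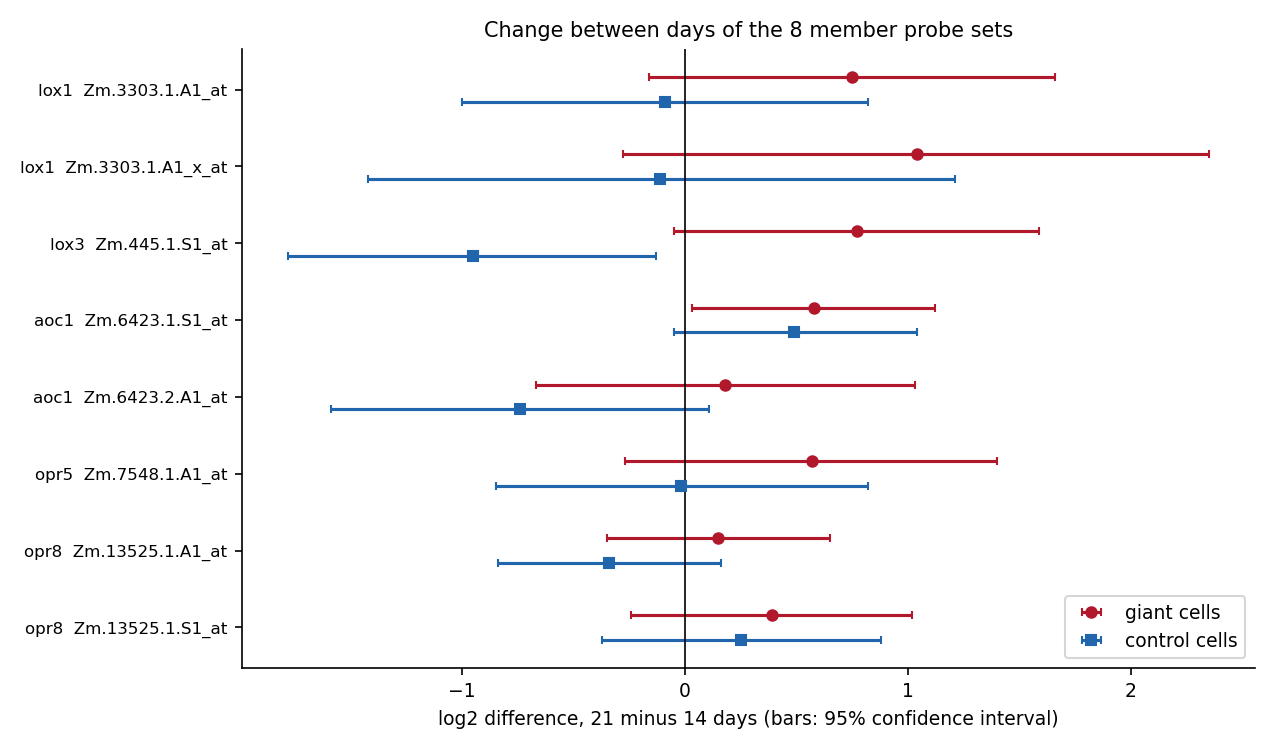
Log2 difference, 21 minus 14 days, of the 8 probe sets in giant cells (circles) and control cells (squares), with 95% confidence intervals from the limma fit. All 8 giant-cell values lie above 0, from 0.15 to 1.04, and the control values run from -0.95 to 0.49.

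In control cells, again 0 of 8 passed between days (limma, lowest adjusted p = 0.45), where 0.0248% of all tested probe sets did, and 1 of 8 had an unadjusted p under 0.05, against 9.85% of all. That was lox3, at 576, 553 and 954 at 21 days against 853, 1126 and 2346 at 14 days, with a log2 difference of -0.95 (-1.78 to -0.13). It stood at -0.54 without array 3 of control cells at 14 days. For lox1 and opr5 the control differences were near 0, at -0.09 (-1.0 to 0.82) and -0.02 (-0.85 to 0.82). The 2 aoc1 probe sets parted in control cells too: every array of S1_at at 21 days lay above every array at 14 days (0.49, -0.05 to 1.04) and every array of A1_at lay below (-0.74, -1.59 to 0.11). Of all tested probe sets, 7% lay wholly above and 7.49% wholly below.

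The difference between giant and control cells was also compared between days by an interaction. It is built from the differences on each day, on which the genes were chosen, so it is not free of that choice. None of the 8 probe sets passed (limma, lowest adjusted p = 0.54), and 0% of all tested probe sets did. At an unadjusted p under 0.05 it was 1 of 8, against 6.95% of all. All 8 interactions, 21 minus 14 days, were positive, with a median of 0.71 against -0.03 for all probe sets and 47.9% of all positive. Those of aoc1 S1_at and opr8 S1_at turned to -0.14 and -0.09 with scaling to the added transcripts, and reached -0.07 and -0.11 without single arrays. A positive value is a narrower gap at 21 days for probe sets lower in giant cells, but a wider gap for opr8 and aoc1 S1_at. The 8 probe sets also share their arrays, and some share a gene, so nothing is read from the count of positive values. For lox3 the interaction was 1.73 (0.57 to 2.89, unadjusted p = 0.0068, limma adjusted p = 0.54), so the gap between giant and control cells was narrower at 21 days in these arrays, but not beyond what the test over all probe sets allows. Without array 3 of control cells at 14 days it was 1.31.

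Other genes were read from 8 pathway lists with 96 symbols, from fatty acid release to jasmonate-responsive defence genes, of which 21 genes were found on the array and 16 tested, the 5 genes above included. Of the 11 others, 4 fell and 2 rose in giant cells in the mean of both days (limma adjusted p under 0.05, 1 probe set per gene), where 17% and 25.1% of all tested probe sets did. One of the rises was dad1, which the list matched by symbol only and which is not a gene of jasmonate synthesis, and its call was lost with no filter, without the variance trend and with replicate number as a block. Of the 10 genes besides dad1, 4 fell and 1 rose, with a median log2 difference of -0.67, against 0.15 for all tested probe sets. With scaling to the added transcripts 8 of these 10 fell and 0 rose. Under that scaling 4954 of all 12080 tested probe sets fell and 468 rose. Between days in giant cells 0 of the 11 passed.

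Upstream in the pathway, FAD8 and fad7, which encode desaturases that make linolenic acid in plastids, fell, with log2 differences of -2.68 ± 0.48 and -1.57 ± 0.35 (limma adjusted p = 0.00093 and 0.0033). FAD8 had signals of 303, 1880 and 405 in giant cells at 14 days, against 4445, 2809 and 4953 in control cells. On day 21 the signals were 141, 244 and 916 in giant cells, against 2922, 1571 and 2049 in control cells. Array 2 of giant cells at 14 days held the highest giant-cell signal of both desaturase genes, with 1682 for fad7 against at most 726 on the other giant-cell arrays. PLD1, a phospholipase gene, stood at -0.40 (limma adjusted p = 0.19). The probe set matched as dad1 rose by 0.52 (limma adjusted p = 0.048). Its synonym fdad1 belongs to a gene of protein glycosylation and not to the lipase of jasmonate synthesis, and with scaling to the added transcripts it stood at -0.17. Its p was above the threshold with no filter on dim probe sets (0.054), without the variance trend (0.063) and with replicate number as a block (0.061), and also without most of the single arrays.

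At the next step the allene oxide synthase gene aos1 stood at -0.56 in giant cells (limma adjusted p = 0.14), with 426, 544 and 645 in giant cells at 14 days, against 488, 621 and 1183 in control cells. The hydroperoxide lyase gene HPL had signals of at most 100 and was not tested. Between days in giant cells aos1 stood at -1.11 (limma adjusted p = 0.20), opposite in sign to the 8 probe sets above.

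Of the other OPDA reductase genes, opr1 fell by 3.32 ± 0.82 on the log2 scale (limma adjusted p = 0.0062). The size rests in part on array 1 of giant cells at 21 days, which at 7.01 lay below the added 9.5, and without that array the difference was -2.52 (limma adjusted p = 0.0059). Without both arrays 3 of 14 days it was -2.57. The gene read 104, 177 and 23.1 in giant cells at 14 days, against 421, 1520 and 4153 in control cells. On day 21 the signals were 7.01, 411 and 503 in giant cells, against 642, 1603 and 854 in control cells. The cell types did not overlap on either day, although arrays within a group differed by more than for opr5. The gene opr3 stood at -0.82 (limma adjusted p = 0.082, and 0.038 with replicate number as a block) and passed without array 3 of control cells at 21 days (-1.17, limma adjusted p = 0.0037). On that tested probe set giant cells lay below control cells at 14 days and overlapped them at 21 days. A second opr3 probe set was too dim to be tested. It read 52.4 to 72.6 in giant cells against 81.7 to 142 in control cells at 14 days. At 21 days it read 13.1 to 47.5 against 58.2 to 95.3. The partner of opr8, opr7, stood at 0.12 in the mean of both days (limma adjusted p = 0.73), with 195, 397 and 287 in giant cells at 14 days, against 356, 301 and 618 in control cells. On day 21 the signals were 674, 515 and 455 in giant cells, against 294, 212 and 508 in control cells. The 14-day and 21-day differences of opr7 were -0.51 and 0.75.

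**Figure D5:**
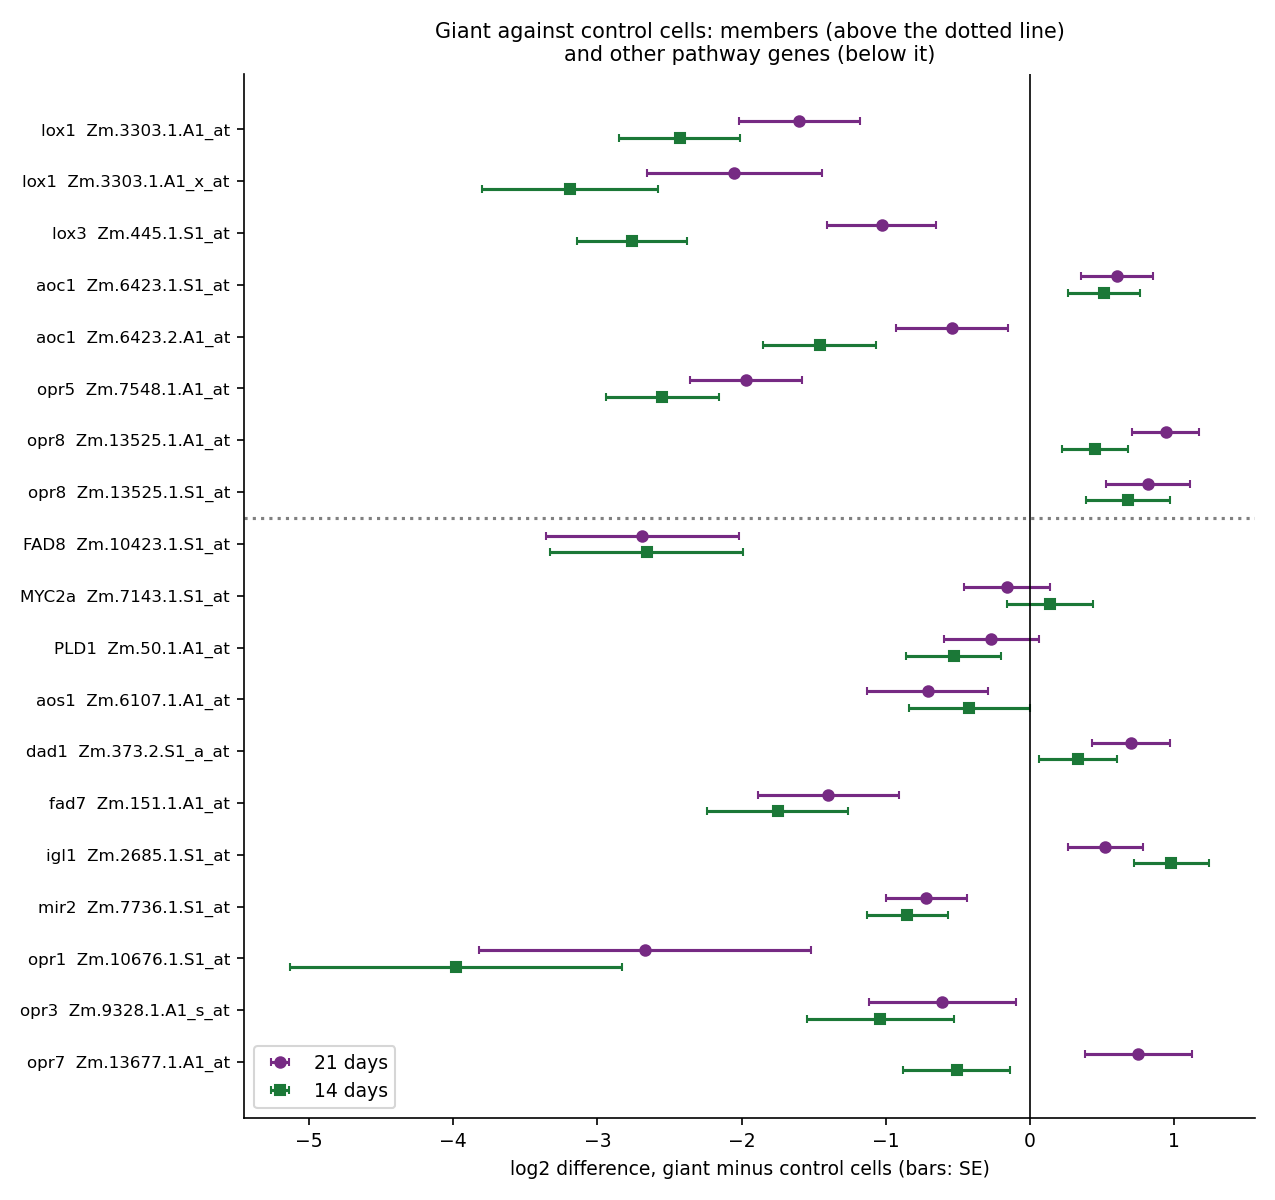
Log2 difference, giant minus control cells, at 21 days (circles) and 14 days (squares) for the 8 probe sets of the 5 genes, above the dotted line, and for 1 probe set of each of the 11 other genes that the lists matched, below it, with standard errors; dad1 among them was matched by symbol only and is not a gene of jasmonate synthesis. FAD8, opr1, lox1, lox3 and opr5 lie left of 0 on both days, and opr7 lies on opposite sides of 0 on the 2 days.

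Downstream, MYC2a, which encodes a transcription factor of jasmonate signalling, stood at -0.01 between cell types (limma adjusted p = 0.97). In giant cells it read 184, 291 and 236 at 21 days against 450, 556 and 374 at 14 days, a log2 difference of -0.93 (limma adjusted p = 0.14) with no overlap between days. Among wound- and jasmonate-responsive genes, igl1, whose enzyme releases free indole, rose by 0.75 ± 0.19 (limma adjusted p = 0.0070), and mir2, a cysteine protease gene, fell by 0.78 ± 0.20 (limma adjusted p = 0.0071). With scaling to the added transcripts igl1 stood at 0.06. The others of that list, wip1, mir1, prp2 and stc, had signals of at most 74.8 on every array and were too dim to be tested. No gene of the beta-oxidation list was found on the array under its name.

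Among 703 other named genes tested, those whose mean-centred log2 signals over the 12 arrays were most like those of each member were found by the smallest root mean square difference. For lox3 they were aox1 (0.50), SAG (0.50) and opr5 (0.54), against a median of 1.23 over the 703 genes. For lox1 they were aox1 (0.41), gar1 (0.55) and the alpha-tubulin gene tua6 (0.56), with a median of 1.24. The genes most like opr5 were the cell wall invertase gene incw1 (0.44), the glutathione transferase gene gst42 (0.46) and the glutamine synthetase gene GLN6 (0.53), with a median of 1.32. For aoc1 S1_at they were hmg2 (0.23), nfa101 (0.26) and pdi12 (0.27), and for opr8 S1_at ubc7 (0.23), DBB11, a profilin gene with the synonym prf5 (0.26), and CCD (0.28), where the medians were 0.71 and 0.73. The aoc1 and opr8 distances are smaller partly by arithmetic, since these 2 profiles themselves varied by only 0.45 and 0.51 around their means, against 1.12 to 1.22 for the other 3.

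Markers of other root tissues moved with the cell type beside these genes. Of 9 symbols of water and ion uptake tissue 7 were on the array, and all 7 fell in giant cells, with summed signals of 742 to 1913 on giant-cell arrays against 14210 to 33681 on control arrays. Of 5 xylem and secondary wall genes found 4 fell, with sums of 342 to 1103 on giant-cell arrays against 828 to 3377 on control arrays. The epidermis marker rop6 also fell, with 34.8 to 203 in giant cells against 225 to 507 in control cells. Both tested genes of the meristem list, lg3 and rs2, rose. Summed over the 3 found, signals were 186 to 487 in giant cells against 60.4 to 153 in control cells. The 1 tested gene of the phloem list rose too. Summed over the 3 found (sut1, SPS and sdx1), signals were 143 to 305 in giant cells against 42.6 to 124 in control cells. KN-1 of the meristem list and sut1 reached at most 41 and 44.3. Whether these genes mark meristem or phloem in these roots was not tested. Of the 3 photosynthetic markers found only C4ppdkZm1 was tested, and it did not pass. The other markers of that list, rbcS and pep1, reached at most 43 and 31.6 and were not tested. No marker in these lists was below 9.5 on all 12 arrays. Between days none of the tested markers passed in either cell type. In giant cells their log2 differences, 21 minus 14 days, were -1.17 for rop6, -0.40 for the phloem marker and -0.28 for the photosynthetic one, with medians of -0.26 for meristem, -0.06 for xylem and 0.06 for water and ion uptake. In control cells they were 0.13 for rop6, 0.91 for the phloem marker and -0.34 for the photosynthetic one. The control medians were 0.21 for meristem, -1.14 for xylem and -0.48 for water and ion uptake. The part of these tissues in the differences between cell types or days was not tested, and no marker list for giant cells themselves was used.

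The array with the highest signal differed between the genes. In control cells at 14 days, array 3 held the highest signal for lox3, opr5 and both aoc1 probe sets and array 1 for both lox1 and both opr8 probe sets. At 21 days array 3 was highest for 5 of the 8 probe sets in giant cells and for the same 5 in control cells (lox1 A1_x_at, lox3, opr5 and both of opr8). The labels do not say whether arrays with the same number share a plant.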

How the data were processed

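The authors' deposited values are intensity, as MAS5 signals made with Affymetrix Expression Console per the submitters' processing notes. RNA from the captured cells was amplified (NuGEN WT-Ovation Pico), per the labels' protocols. The labels give no scan dates or software versions. Every array has a trimmed mean of 500.1 or 500.2, so the arrays were scaled to a common level. Precision is limited by 3 arrays per group, and detection calls were not used.

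From these values, 9.5, the 10th percentile of all signals, was added before log2. Probe sets above the 40th percentile of their array on at least 3 arrays were tested, 12080 of 17621. A model with 4 group means was fitted with limma 3.58.1 (eBayes with a variance trend, R 4.3.3), two-sided, with Benjamini-Hochberg adjustment over all probe sets tested and a threshold of 0.05. The code was tested on simulated data. Of the probe sets, 1452 have 1 gene in the platform annotation, 1 has several and 16168 have none. Of 1108 genes, 1060 matched the RefSeq table of the B73 assembly, used for names only. The brightest probe set stood for a gene in counts. Named were all member probe sets, tested genes of the pathway lists, the 3 most alike genes of each member, and markers. The members, lists and alternatives were chosen with earlier results of these data known. Sequences are not shown, since none were used here. Replicates' p-values measure only the spread between these samples. Alternatives were other offsets, filters, scalings and variance models, replicate blocks, and leaving out arrays.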

Additional observations from a re-analysis of the deposited data

Results flagged for a closer look

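The results here are those in which every array of one group moved one way against the mean of its comparison group and every array of the other group moved the opposite way. For lox3, every giant-cell array at 21 days lay above the giant-cell mean at 14 days and every control array at 21 days lay below the control mean at 14 days, with an interaction of 1.73 log2 units (limma adjusted p = 0.54). For igl1 the giant-cell arrays lay below and the control arrays above, with an interaction of -0.46 (limma adjusted p = 0.87). The control side held only narrowly, with igl1 at 602, 611 and 695 at 21 days. The control mean at 14 days was 599, from arrays between 393 and 834. For opr7, every giant-cell array lay below the control mean at 14 days and above it at 21 days, with an interaction of 1.26 (limma adjusted p = 0.69). None of the 3 passed the test of the difference itself.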

How the results depend on the processing

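In every alternative 0 of the 8 probe sets passed between days or in the interaction, although with the stricter filter lox1 A1_x_at was not tested. The count with a positive day difference in giant cells ran from 7 to 8. Deviations of same-numbered arrays correlated between -0.07 and 0.24, and those of differently numbered arrays between -0.27 and 0.2. With 3 arrays per group these values cannot show whether replicate numbers pair the samples, and the labels do not say. With replicate number as a block the counts of called probe sets between days were 48 in giant cells and 1 in control cells, and 1 other gene of the lists rose.

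Over all probe sets, 77 were called between days in giant cells. The count was 42 with no filter, 125 with a stricter filter, 118 with quantile normalization, 19 with scaling to the added transcripts, 48 without the variance trend, and 14 without both arrays 3 of 14 days (an alternative chosen after the data were seen). Without single arrays it ran from 4 to 205, lowest without array 1 of giant cells at 21 days. In control cells 3 were called, 1 with no filter, without the trend or without both arrays 3, 0 with scaling to the added transcripts, and 0 to 2 without single arrays. The interaction had 0 calls, and 0 to 9 without single arrays. Between cell types, 3324 were called at 14 days, 1331 without both arrays 3 of 14 days, and 2071 to 3453 without single arrays. At 21 days 2217 were called, 3618 with scaling to the added transcripts (140 higher and 3478 lower, against 1163 and 1054 as deposited), and 1032 to 2438 without single arrays. At 14 days that scaling gave 351 higher and 2414 lower, against 1872 and 1452. In the mean of both days that scaling gave 468 higher and 4954 lower of 12080. Of the 11 other genes of the lists, dad1 included, 8 fell with that scaling and 0 rose. A single rise was left with no filter, without the trend, or without both arrays 3, and 1 to 2 rose and 4 to 5 fell without single arrays.

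Signs turned mostly where values were small, except with scaling to the added transcripts. That scaling also turned larger differences, such as opr7 at 21 days (0.75 as deposited) and aoc1 S1_at in the mean (0.55 as deposited). With scaling to the added transcripts, aoc1 S1_at stood at -0.13 in the mean, -0.06 at 14 days, -0.20 at 21 days and -0.14 in the interaction. Likewise opr8 A1_at stood at -0.12 at 14 days, opr8 S1_at at -0.09 in the interaction, opr7 at -0.55 in the mean and -0.03 at 21 days, dad1 at -0.17, and opr5 at 0.06 between days in control cells, as with quantile normalization (0.06). Without both arrays 3, control differences between days were 0.01 for lox1 A1_at, 0.25 for opr5 and -0.12 for igl1, aoc1 A1_at stood at -0.26 between days in giant cells, and MYC2a at 0.07 in the mean. Without single arrays, control differences between days ran from -0.43 to 0.36 and -0.48 to 0.47 for lox1, from -0.31 to 0.38 for opr5 and from -0.12 to 0.42 for igl1. Interactions ran from -0.07 to 0.31 for aoc1 S1_at and from -0.11 to 0.37 for opr8 S1_at, the giant-cell day difference of aoc1 A1_at from -0.26 to 0.45, and the means from -0.02 to 0.29 for opr7 and from -0.15 to 0.11 for MYC2a. The cause was not tested.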
